A study of Mus musculus with 10 samples.

Results

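The choroid plexus is the folded tissue inside the brain ventricles that makes cerebrospinal fluid, and a single layer of epithelial cells forms its surface. The 9 genes described here are transcribed in those cells: Ttr, Kl, Lbp, Kcnj13, Slc4a5, Trpv4, Slc31a1, Otx2 and Cox8b. Each was represented by the probe set whose only annotated symbol was that gene, which gave 9 probe sets for 9 genes, out of 21789 probe sets with 1 symbol (19938 genes) and 35556 probe sets in all. The 9 genes were picked with their ethanol differences in these same arrays already known. Those differences are therefore given as a description, with no test, and their common direction is no evidence about the tissue.

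The arrays measured whole-brain RNA of male C57BL/6J mice at postnatal day 70. Ethanol-exposed males were the offspring of females that drank 10% ethanol in water from gestational day 0 until the pups reached postnatal day 10, and control males those of females that drank water alone. Experiment 1 comprised 2 ethanol and 2 control arrays, each with the pooled RNA of 3 mice, and experiment 2 comprised 3 ethanol and 3 control arrays with 2 mice in each pool. Each experiment used 12 mice, and all animals measured were males of one inbred strain at one age. It is not known here if any 2 pools held littermates, and errors and p-values describe the spread between pools.

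Choroid plexus epithelial cells move sodium, chloride, bicarbonate and water from blood to the ventricle, seal the barrier between them with tight junctions, and secrete carrier proteins and hormones into the fluid. The homeobox factor Otx2 is required for the tissue to form and is retained in its adult epithelium. In whole-brain RNA the tissue is a small fraction of the sample. Fewer epithelial cells and less RNA per cell cannot be told apart in such bulk samples. Several of the 9 genes are not private to this epithelium: retinal pigment epithelium transcribes Otx2, Kcnj13 and Ttr, the pineal gland transcribes Otx2, and Slc31a1 is active in most cells.

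Deposited values were log2 levels, with array medians of 6.99 to 7.05 and correlations between arrays of 0.989 to 0.996. Before deposit the mean of each probe set had been made equal in the 2 experiments, to within 5.83e-05, so levels are compared only within an experiment. Markers of neurons, glia and microglia (10 of 11 measured) had mean levels of 8.87 to 13.3. Xist, which males do not transcribe, had a mean level of 5.12, and 3 Y-linked genes had 8.86 to 10.1. Some arrays stood apart in markers of tissue next to the brain. The mean level of 9 pituitary markers was 7.77 and 7.07 on ethanol arrays of experiment 1, against 5.80 and 5.95 on control arrays, and in experiment 2 it was 8.24 on ethanol replicate 2 and 6.20 to 6.56 on the other 5 arrays. The mean of 9 olfactory mucosa markers was 8.28 on control replicate 2 of experiment 2, against 6.09 to 7.27 on the other arrays of that experiment. The part of these tissues in the results below was not tested, and only values without each array are given. In experiment 1 both ethanol arrays were above both control arrays in pituitary markers, and leaving out 1 array does not remove this. Pituitary content and ethanol therefore cannot be told apart in experiment 1.

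All 9 genes had a lower mean on the ethanol arrays than on control arrays in both experiments. Over both experiments the differences (ethanol minus control) lay between -0.31 log2 units for Kcnj13 and -0.11 for Ttr, with a median of -0.21, which is a change of -13.6%. The median over all 21789 probe sets was -0.01. The median of the 9 was -0.17 in experiment 1 and -0.24 in experiment 2. Of 45 ethanol values, 44 lay below the control mean of their experiment. In experiment 1 both ethanol arrays lay below both control arrays for 7 of the 9 genes, where 19.2% of all probe sets did. In experiment 2 all ethanol arrays lay below all control arrays for 7 of 9, where 11.6% of all probe sets did. For 6 genes (Kl, Lbp, Kcnj13, Trpv4, Slc31a1 and Otx2) this held in both experiments, as it did for 2.82% of all probe sets. Because the genes were picked on this contrast, nothing is read from those shares.

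**Figure D1:**
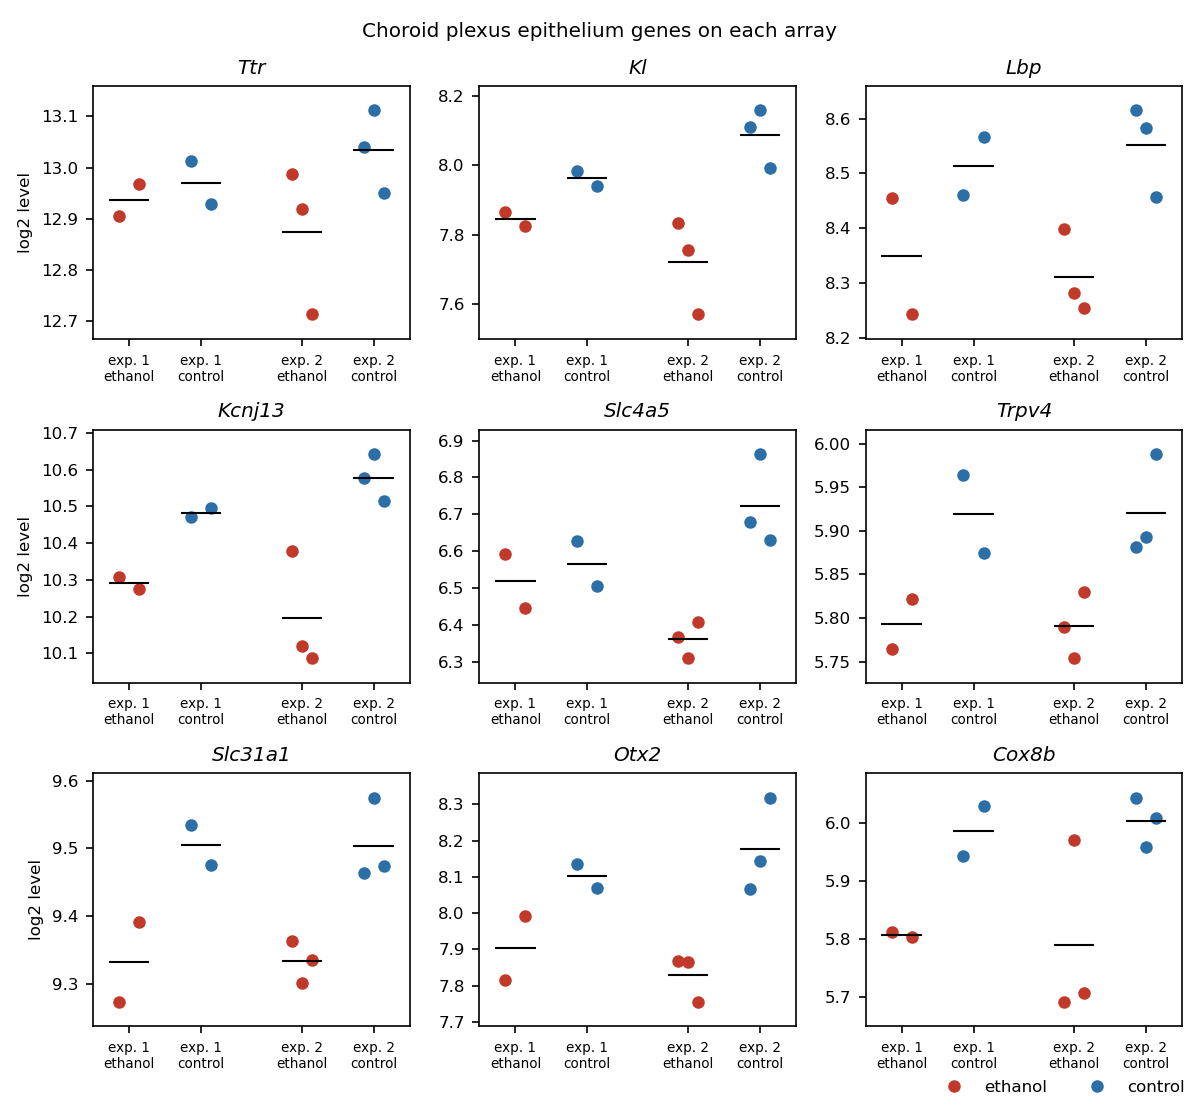
Log2 level of each of the 9 choroid plexus genes on every array, with ethanol arrays (red) left of control arrays (blue) in experiment 1 (n = 2 each) and experiment 2 (n = 3 each). Points are arrays of pooled brains and lines are group means, and each panel has its own axis. The ethanol mean is the lower one in all 9 panels, and the points of the 2 treatments overlap in both experiments only for Ttr.

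Among the carriers and secreted proteins, Ttr encodes transthyretin, which carries thyroid hormone and retinol-binding protein in cerebrospinal fluid and is among the most abundant transcripts of this epithelium. Its log2 level was 12.90 and 12.97 on ethanol arrays of experiment 1, against 13.01 and 12.93 on control arrays. In experiment 2 it was 12.99, 12.92 and 12.71 on ethanol arrays, against 13.04, 13.11 and 12.95 on control arrays. The treatments overlapped in both experiments, and ethanol replicate 3 of experiment 2 was the one array clearly below the rest. The difference over both experiments was -0.11 ± 0.06 (SE), a change of -7.35% and the smallest of the 9. In experiment 1 it was -0.03 ± 0.09 and became 0.01 without control replicate 1, so no direction is given there.

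Kl encodes klotho, a membrane protein that is a co-receptor for FGF23 and is also shed into the fluid. Its level was 7.86 and 7.82 on ethanol arrays of experiment 1, against 7.98 and 7.94 on control arrays. Experiment 2 gave 7.84, 7.75 and 7.57 on ethanol arrays, against 8.11, 8.16 and 7.99 on control arrays. No ethanol array reached a control array in either experiment, and ethanol replicate 3 of experiment 2 was again the lowest. The difference was -0.12 ± 0.09 in experiment 1 and -0.37 ± 0.07 in experiment 2.

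Lbp encodes lipopolysaccharide-binding protein, which delivers bacterial lipopolysaccharide to CD14. Its level was 8.45 and 8.24 on ethanol arrays of experiment 1, against 8.46 and 8.57 on control arrays. The gap between the treatments there was 0.0065 log2 units, far below the SD of 0.15 of the ethanol arrays. In experiment 2 Lbp was 8.40, 8.28 and 8.25 on ethanol arrays, against 8.61, 8.58 and 8.46 on control arrays. The difference over both experiments was -0.21 ± 0.05, and that of experiment 1 was -0.27 without ethanol replicate 1 and -0.06 without ethanol replicate 2.

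Among the channels and transporters, Kcnj13 encodes Kir7.1, an inwardly rectifying potassium channel of the apical membrane of this epithelium. Its level was 10.31 and 10.27 on ethanol arrays of experiment 1, against 10.47 and 10.49 on control arrays. The levels of experiment 2 were 10.38, 10.12 and 10.09 on ethanol arrays, against 10.58, 10.64 and 10.52 on control arrays. The treatments were separated in both experiments, by 0.16 and 0.14 log2 units between the nearest arrays. The difference over both experiments, -0.31 ± 0.06, was the largest of the 9 and amounts to a change of -19.1%. In the RefSeq gene table Kcnj13 overlaps Gigyf2, whose own probe set differed by 0.03 ± 0.05.

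The promoters of Kcnj13, Otx2 and Slc31a1 are shown as examples whose windows hold letters of well-known promoter elements. The Otx2 window shown is that with the OTX letters. A lower ethanol mean in both experiments was common to all 9 genes and does not set these 3 apart. Each line is the 250 bases before the RefSeq start (GRCm38.p6), read 5′ to 3′ along the gene. The Kcnj13 window is chr1:87394730-87394979 (minus strand), that of Otx2 is one of its 4 listed windows, chr14:48665110-48665359 (minus strand), and that of Slc31a1 is chr4:62360451-62360700 (plus strand). Capitals mark matches, on either strand, to 4 motifs. The OTX motif is spelled TAATCC and is read as GGATTA when it lies on the opposite strand. Its shorter core is spelled TAATC and is read as GATTA when it lies on the opposite strand. The CCAAT box is spelled as its name, with ATTGG on the opposite strand. The TATA box is spelled TATAAA here, with TTTATA on the opposite strand.
Kcnj13: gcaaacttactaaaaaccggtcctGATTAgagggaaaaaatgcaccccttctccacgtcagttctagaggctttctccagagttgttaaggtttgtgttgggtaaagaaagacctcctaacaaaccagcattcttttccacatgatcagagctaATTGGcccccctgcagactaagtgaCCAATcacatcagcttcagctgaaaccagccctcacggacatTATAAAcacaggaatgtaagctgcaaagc
Otx2: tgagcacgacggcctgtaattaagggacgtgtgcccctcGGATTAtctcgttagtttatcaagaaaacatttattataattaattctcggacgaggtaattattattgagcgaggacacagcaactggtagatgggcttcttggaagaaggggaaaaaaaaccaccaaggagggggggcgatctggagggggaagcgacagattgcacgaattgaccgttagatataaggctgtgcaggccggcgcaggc
Slc31a1: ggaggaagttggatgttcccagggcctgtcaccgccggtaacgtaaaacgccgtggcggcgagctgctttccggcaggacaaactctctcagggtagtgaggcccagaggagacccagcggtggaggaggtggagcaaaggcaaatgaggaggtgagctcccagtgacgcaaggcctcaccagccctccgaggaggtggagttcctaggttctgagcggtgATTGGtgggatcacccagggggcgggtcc
The Kcnj13 window holds GATTA 226 to 222 bases before the start, a CCAAT box on each strand (96 to 92 and 71 to 67 bases before it) and TATAAA 29 to 24 bases before it. The Otx2 window holds GGATTA 211 to 206 bases before the start, and the core letters lie inside that match. The Slc31a1 window holds ATTGG 29 to 25 bases before the start. Among all 32851 RefSeq mouse windows of this length, on either strand, 6.25% hold the OTX motif, 19.8% hold its core, 33.8% hold a CCAAT box and 12.4% hold a TATA box. Among the 10 windows found for 7 of the 9 genes, the other matches were a CCAAT box and a TATA box in 2 further Otx2 windows and a TATA box in that of Slc4a5. The windows of Kl, Trpv4 and Cox8b held none of these letters, and no window of Lbp or Ttr is given here. Such matches are letters in a window and say nothing about binding.

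Slc4a5 encodes NBCe2, a sodium bicarbonate cotransporter of the apical membrane. Its level was 6.59 and 6.45 on ethanol arrays of experiment 1, against 6.63 and 6.51 on control arrays, and the treatments overlapped. In experiment 2 the gene read 6.37, 6.31 and 6.41 on ethanol arrays, against 6.68, 6.86 and 6.63 on control arrays. Here the nearest arrays lay 0.22 apart, the widest gap among the 9 genes in that experiment. The difference was -0.05 ± 0.09 in experiment 1 and -0.36 ± 0.07 in experiment 2. That of experiment 1 turned to 0.01 without its control replicate 1 and to 0.03 without its ethanol replicate 2.

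Trpv4 encodes a cation channel opened by swelling and warmth. Its level was 5.76 and 5.82 on ethanol arrays of experiment 1, against 5.96 and 5.87 on control arrays. Experiment 2 gave 5.79, 5.75 and 5.83 on ethanol arrays, against 5.88, 5.89 and 5.99 on control arrays. The difference was -0.13 in each experiment (SE 0.07 and 0.05), with no overlap in either. Its mean level, 5.86, lay in the dimmest of 4 equal bins of probe sets by level, and no detection calls were used here.

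Slc31a1 encodes the copper importer CTR1. Its level was 9.27 and 9.39 on ethanol arrays of experiment 1, against 9.53 and 9.47 on control arrays. The levels of experiment 2 were 9.36, 9.30 and 9.34 on ethanol arrays, against 9.46, 9.57 and 9.47 on control arrays. All ethanol arrays lay below all control arrays, and the difference was -0.17 in each experiment (SE 0.07 and 0.06). Its overlapping neighbour in the RefSeq table, Fkbp15, differed by -0.01 ± 0.04.

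Otx2, the transcription factor among the 9, had levels of 7.81 and 7.99 on ethanol arrays of experiment 1, against 8.14 and 8.07 on control arrays. In experiment 2 the gene read 7.87, 7.86 and 7.76 on ethanol arrays, against 8.07, 8.14 and 8.32 on control arrays. The ethanol arrays lay below the control arrays in both experiments. The difference was -0.20 ± 0.09 in experiment 1, -0.35 ± 0.07 in experiment 2 and -0.29 ± 0.06 over both, a change of -18.1%.

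Cox8b encodes a subunit of cytochrome c oxidase, the last complex of the respiratory chain, in the isoform known from heart, skeletal muscle and brown fat. Its level was 5.81 and 5.80 on ethanol arrays of experiment 1, against 5.94 and 6.03 on control arrays. Experiment 2 gave 5.69, 5.97 and 5.71 on ethanol arrays, against 6.04, 5.96 and 6.01 on control arrays. Ethanol replicate 2 of experiment 2 lay among the control arrays, and the other 4 ethanol arrays lay below every control array of their experiment. The difference over both experiments was -0.20 ± 0.05. Its mean level, 5.90, lay just above the dimmest of the 4 bins, which ended at 5.87, and no detection calls were used.

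The 9 differences varied between the experiments. Experiment 2 gave the more negative value for 8 genes, all but Slc31a1. Experiment 2 minus experiment 1 was -0.31 ± 0.11 (SE) log2 units for Slc4a5, -0.25 ± 0.11 for Kl and 0.00 ± 0.09 for Trpv4 and Slc31a1. For Lbp (-0.08 ± 0.11) and Cox8b (-0.03 ± 0.12) it was also smaller in size than its SE. These differences between experiments were not tested, since the genes were picked on both. On the ethanol arrays of experiment 2, replicate 3 was the lowest of its group for 5 genes, replicate 2 for 3 and replicate 1 for 1. The array medians of the 9 genes relative to the control mean were -0.20, -0.27 and -0.32 on those 3 arrays. They were -0.15 and -0.12 on the ethanol arrays of experiment 1. Leaving out ethanol replicate 3 of experiment 2 gave a median of -0.21 in that experiment, leaving out ethanol replicate 2 (high in pituitary markers) gave -0.30, and leaving out control replicate 2 (high in olfactory mucosa markers) gave -0.24. Measured relative to Ttr on the same array, Kl and Kcnj13 were lower on every ethanol array than on every control array in both experiments. This held in experiment 1 alone for Trpv4, Slc31a1, Otx2 and Cox8b, and in neither experiment for Lbp and Slc4a5. No share of all probe sets relative to Ttr is given here. The 9 genes were picked on this contrast and Ttr had the smallest difference among them, so nothing is read from this separation. The ethanol minus control values relative to Ttr were -0.16 and -0.22 log2 units for Kcnj13 in experiments 1 and 2, -0.08 and -0.21 for Kl, and -0.09 and 0.03 for Trpv4.

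**Figure D2:**
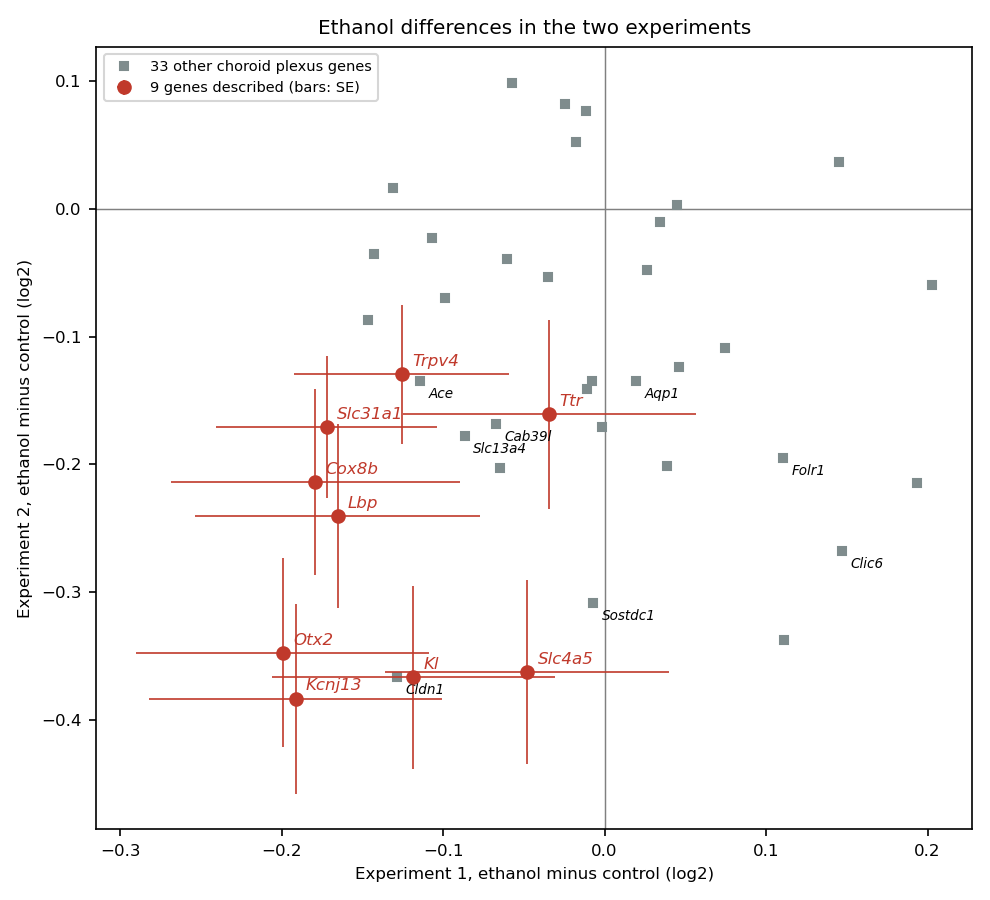
Ethanol minus control in experiment 1 (horizontal axis) and experiment 2 (vertical axis), in log2 units, for the 9 genes described (red, bars are limma SEs) and 33 other choroid plexus epithelium genes (grey squares). The 9 genes lie below 0 on both axes, from -0.03 to -0.20 in experiment 1 and from -0.13 to -0.38 in experiment 2, while Clic6 and Folr1 lie above 0 in experiment 1 and below 0 in experiment 2.

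Dim and bright probe sets differed by treatment across the whole table. With probe sets in 4 equal bins by mean level, the median difference in the dimmest bin was 0.04 and 20.7% of probe sets were lower on ethanol arrays, and in the brightest bin it was -0.04 and 77.5% were lower. Taken relative to the median of its own bin, each of the 9 genes had a negative difference over both experiments, from -0.07 for Ttr to -0.27 for Kcnj13. The dim genes Trpv4, Cox8b and Slc4a5 then stood at -0.17, -0.22 and -0.25. The bin medians, from -0.05 to 0.04, were smaller in size than all 9 differences, and the genes were picked on this contrast. Nothing is therefore read from these signs. Ttr in experiment 1 turned to 0.01 with arrays centred within level bins.

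The other genes of this epithelium were taken from a list of 39, of which 33 were measured. Over both experiments 25 of the 33 were lower on ethanol arrays in the values as deposited, with a median difference of -0.07. In the same values 54.4% of all probe sets were lower, with a median of -0.01. The number lower was 31 after quantile normalization, 28 after median centring and 28 with centring within level bins. The medians over all probe sets were then -0.013, -0.036 and -0.001. The limma fit over all probe sets made 0 calls at adjusted p under 0.05 (0% of all probe sets), among these genes or elsewhere, and 2703 at unadjusted p under 0.05. At unadjusted p under 0.05, 4 of the 33 were lower and 0 higher, where 7.68% of all probe sets were lower and 4.72% higher. That count was 9 with arrays centred on their medians, where the share of all probe sets lower at this threshold also rose, to 13.5%. It ranged from 3 to 9 with single arrays left out, for which no share of all probe sets is given here. It was 9 without ethanol replicate 1 of experiment 1, and 8 and 7 without control replicates 1 and 2 of that experiment. All ethanol arrays lay below all control arrays in both experiments for 2 of the 33 (6.06%), where 2.82% of all probe sets did.

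The 4 genes at that unadjusted threshold were Cldn1, a tight junction claudin (-0.27 ± 0.09), Ace, the angiotensin-converting enzyme (-0.13 ± 0.05), Cab39l, a scaffold of the LKB1 kinase (-0.13 ± 0.05), and Slc13a4, a sulfate transporter (-0.14 ± 0.05). Their limma adjusted p-values were 0.331, 0.333, 0.334 and 0.342. Cab39l read 9.69 and 9.61 on ethanol arrays of experiment 1, against 9.73 and 9.70 on control arrays. In experiment 2 it read 9.60, 9.68 and 9.51 on ethanol arrays, against 9.78, 9.81 and 9.70 on control arrays, with no overlap in either experiment. Cldn1 read 7.15 and 7.55 on ethanol arrays of experiment 1, against 7.39 and 7.57 on control arrays, which overlapped.

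By role, all 9 genes of ion and water transport had negative differences in the values as deposited (median -0.08; 7 of 9 with centring within level bins, where Slc4a2 turned to 0.03), and 0 of them passed the unadjusted threshold. They include the water channel Aqp1 (-0.07 ± 0.05), the chloride channel Clic6 (-0.10 ± 0.09), the potassium channel subunit Kcne2 (-0.05 ± 0.05) and the basolateral anion exchanger Slc4a2 (-0.02 ± 0.05). Of 8 genes of the barrier and cell shape, 7 had negative differences and 2 passed, and of 9 receptor and uptake genes 5 were negative (9 after quantile normalization) and 2 passed. Over all probe sets 54.4% were negative in the values as deposited and 7.68% passed as lower. Folr1, the folate receptor that carries folate into the fluid, had -0.07 ± 0.08. Among 6 secreted and binding proteins 4 were negative and 0 passed, including Sostdc1, an antagonist of BMP signalling (-0.19 ± 0.09), and F5, coagulation factor V (-0.11 ± 0.05). Slc29a4, a monoamine transporter (-0.15 ± 0.07), and Cgnl1, a junction protein (-0.11 ± 0.05), missed the threshold.

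Taken by experiment, the 33 genes had a median of -0.01 in experiment 1, with 1 lower at unadjusted p under 0.05 (4.93% of all probe sets) and 1 higher (4.02%). The median was -0.11 in experiment 2, with 12 lower (6.19% of all probe sets) and 0 higher (3.78%). Without ethanol replicate 3 of experiment 2 the 12 became 3, and without its control replicate 2 they became 6. No share of all probe sets is given here with arrays left out. Clic6 differed by 0.15 in experiment 1 and -0.27 in experiment 2, and Folr1 by 0.11 and -0.20. The limma test of the difference between experiments gave unadjusted p under 0.05 for 5 of the 33 and 6.57% of all probe sets, Clic6 among the 5 (adjusted p = 0.717), and 0 of the 5 passed after adjustment.

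Close relatives of the 9 genes did not share a direction under any scaling run. Of 12 listed paralogs 11 were measured, 6 had negative differences (7 to 9 under the other scalings), and the median was -0.02. In the values as deposited the share of negative paralogs was 54.5%, where 54.4% of all probe sets were lower. At unadjusted p under 0.05, where 7.68% of all probe sets were lower, 2 paralogs were lower. Those were Slc31a2, the intracellular copper transporter CTR2 (-0.13 ± 0.05, limma adjusted p = 0.342), and Kcnj16, a potassium channel (-0.14 ± 0.06, adjusted p = 0.362). The ubiquitous isoform Cox8a had a difference of 0.00 ± 0.05, and the testis isoform Cox8c one of 0.04 ± 0.08. Otx1 differed by -0.04 ± 0.05, the klotho relative Klb by 0.02 ± 0.05, the bicarbonate transporters Slc4a4 and Slc4a10 by -0.02 ± 0.04 and 0.00 ± 0.04, and the astrocyte channel Kcnj10 by -0.05 ± 0.05. Trpv2 differed by -0.13 ± 0.07 and the Lbp relative Bpi by 0.06 ± 0.04.

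Of 12 listed partners 11 were measured, with 6 negative (54.5%, where 54.4% of all probe sets were) and a median of -0.02. Cp, the copper-carrying ferroxidase ceruloplasmin, was lower at unadjusted p under 0.05, as 7.68% of all probe sets were (-0.16 ± 0.06, limma adjusted p = 0.350). Fgfr1, the receptor that klotho joins, differed by -0.06 ± 0.05, Tlr4, the lipopolysaccharide receptor, by 0.05 ± 0.05, and Atp7b, a copper exporter, by -0.04 ± 0.05. Rbp4, the retinol-binding protein that transthyretin carries, was named after its values were seen and differed by 0.19 in experiment 1 and -0.20 in experiment 2. The limma test of that difference between experiments gave an adjusted p of 0.665.

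Markers of neighbouring cell types were read on the same arrays. Of 12 meningeal and stromal markers 11 were lower over both experiments, also under each of the 3 other scalings, where 54.4% of all probe sets were lower in the values as deposited. At unadjusted p under 0.05, 3 of the 12 were lower, where 7.68% of all probe sets were. Those 3 were Fmod (-0.30 ± 0.06), Ogn (-0.28 ± 0.07) and Dcn (-0.19 ± 0.05), all 3 proteoglycans of the connective tissue matrix. The mean level of the meningeal list was 7.76 and 7.70 on ethanol arrays of experiment 1, against 7.75 and 7.71 on control arrays. The levels of experiment 2 were 7.66, 7.66 and 7.61 on ethanol arrays, against 7.82, 7.84 and 7.79 on control arrays. The mean of the meningeal list thus separated the treatments in experiment 2, as did the mean of the 9 genes (8.30, 8.25 and 8.18 on ethanol arrays, against 8.50, 8.55 and 8.48 on control arrays), and overlapped in experiment 1. Single markers differed from this mean: in experiment 1 all ethanol arrays lay below all control arrays for 3 of the 12, Fmod, Dcn and Foxc1, where 19.2% of all probe sets did. In experiment 2 this held for 5 of the 12, where 11.6% of all probe sets did, and in both experiments for 2 of the 12 (16.7%), where 2.82% did. Their part in the results above was not tested.

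Ependymal cells line the ventricles next to the choroid plexus. Of 14 ependymal markers 7 were lower (12 after quantile normalization), the median was 0.00, and 1, Rarres2 (chemerin, -0.15 ± 0.04), was lower at unadjusted p under 0.05 (limma adjusted p = 0.306). Over all probe sets 54.4% were lower in the values as deposited, and 7.68% were at that threshold. Of 8 retinal pigment epithelium markers, with mean levels of 5.13 to 7.26, 2 were lower and 0 passed, and of 4 pineal markers, at 5.23 to 5.93, 0 were lower. After quantile normalization 6 of the 8 and 4 of the 4 were lower, so these dim lists have no settled direction. Of 8 endothelial markers 1, the receptor Tek (-0.17 ± 0.07, limma adjusted p = 0.362), was lower at unadjusted p under 0.05, as 7.68% of all probe sets were. The endothelial list had a median of -0.02 (0.01 with centring within level bins) and 6 reference genes one of -0.01 (0.04 with that centring). All 11 cerebellar markers were lower over both experiments under each scaling, 6 at unadjusted p under 0.05, where 7.68% of all probe sets were. By experiment, 5 of the 11 were lower at that threshold in experiment 1 (4.93% of all probe sets) and 0 in experiment 2 (6.19%). These markers had mean levels of 8.79 to 12.3, in the 2 brightest bins, where 77.3% and 77.5% of all probe sets were lower. The mean level of this list was 10.5 and 10.1 on ethanol arrays of experiment 1, against 10.7 and 10.6 on control arrays, and 10.5, 10.5 and 10.2 on ethanol arrays of experiment 2, against 10.6, 10.5 and 10.5 on control arrays. All 9 measured pituitary markers were higher (8 of 9 under the other scalings), 7 at unadjusted p under 0.05, where 4.72% of all probe sets were. By experiment, 6 of the 9 passed in experiment 1 (4.02% of all probe sets) and 1 in experiment 2 (3.78%). The part of the cerebellar and pituitary differences in those of the choroid plexus genes was not tested.

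**Figure D3:**
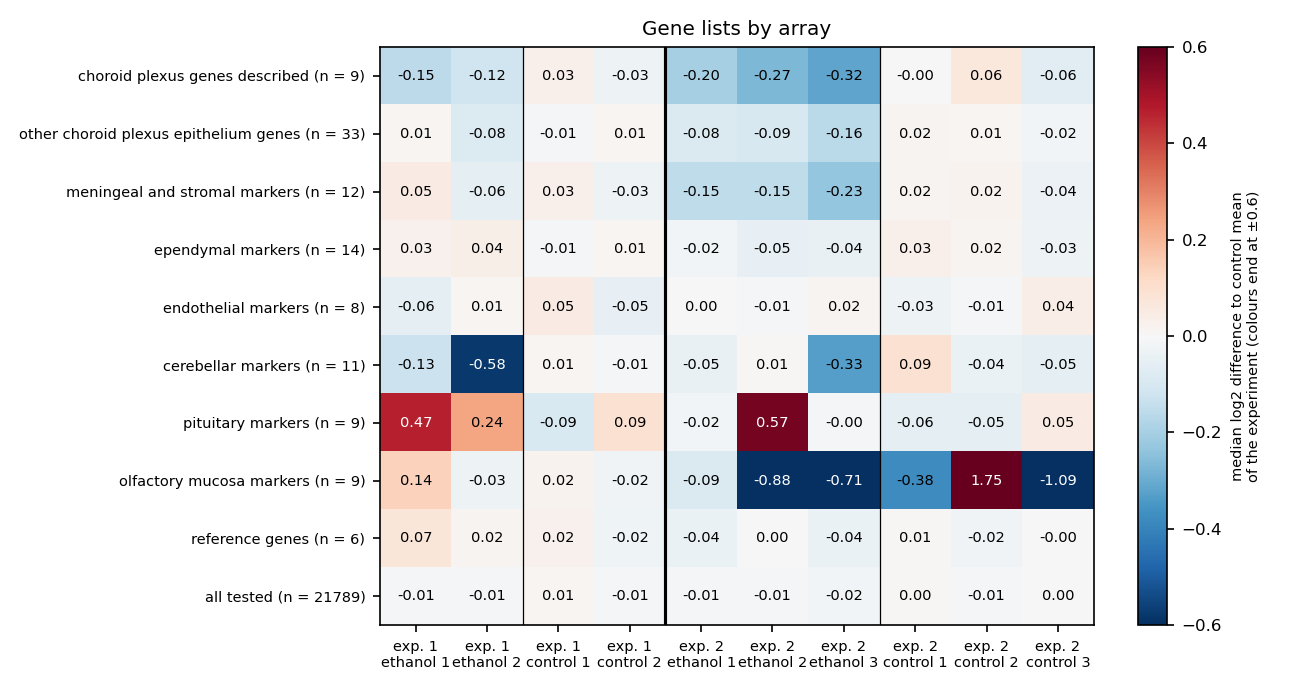
Median log2 difference of each gene list from the control mean of the same experiment, on each of the 10 arrays (columns, ethanol left of control within each experiment). The 9 genes described read -0.12 to -0.32 on the 5 ethanol arrays, the meningeal list reads -0.15 to -0.23 on the ethanol arrays of experiment 2 and 0.05 and -0.06 on those of experiment 1, and the cerebellar list is lowest on ethanol replicate 2 of experiment 1 (-0.58).

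The 9 genes were picked with their ethanol differences known. It is not known here if the variation between arrays of one group also played a part in that choice. After each group mean was removed, 10 arrays with 6 degrees of freedom remained. Over the 36 pairs of genes the median correlation of these deviations was 0.12, 21 were positive, and the range was -0.76 (Lbp and Trpv4) to 0.94 (Ttr and Kl). Pairs among Ttr, Kl and Kcnj13 had values of 0.72 to 0.94. For each of these genes, the mean used next includes the others of this group. Against the mean of the other 8 genes, Pearson's r was 0.91 for Ttr, 0.91 for Kl and 0.70 for Kcnj13 (Spearman's rho 0.88, 0.84 and 0.55). Without the 2 arrays farthest from the median these values of r were 0.76, 0.74 and 0.33. For Slc31a1, Lbp and Slc4a5 r was 0.31, 0.18 and 0.08, and 0.43, -0.27 and 0.56 without the 2 farthest arrays. For Otx2, Cox8b and Trpv4 it was -0.13, -0.35 and -0.46, and -0.59, 0.14 and -0.46 without them. The median of the 9 values of r was 0.18, and it moved to 0.52 without ethanol replicate 3 of experiment 2, 0.38 without either ethanol array of experiment 1, and 0.28 without either control array of experiment 1. It was 0.30 without control replicate 1, 0.06 without control replicate 2 and 0.08 without ethanol replicate 1 of experiment 2. These arrays therefore do not settle how closely the 9 genes varied together within groups.

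**Figure D4:**
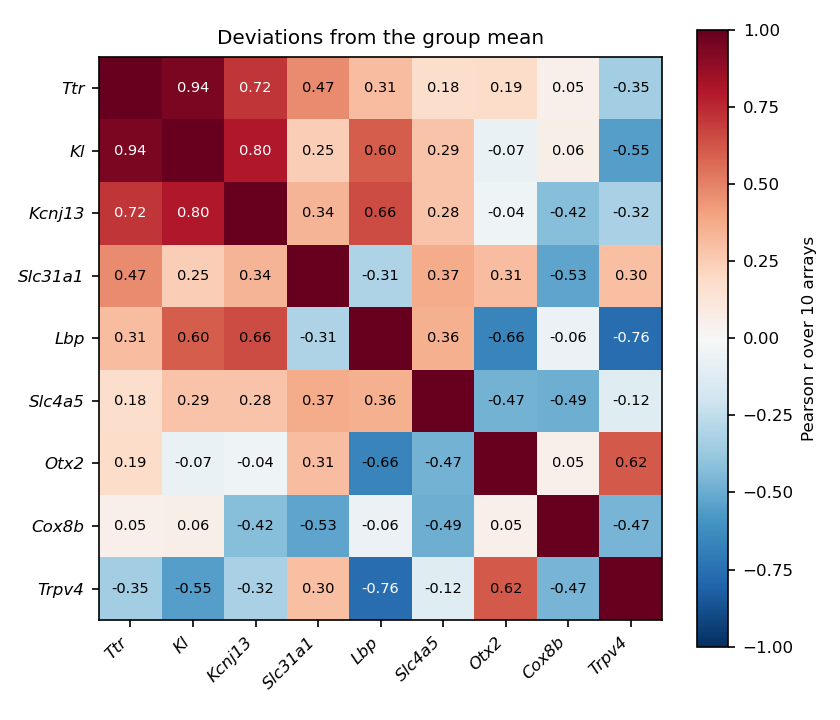
Pearson correlation between the 9 genes of their deviations from the group mean, over 10 arrays (6 degrees of freedom), from -1 (blue) to 1 (red). Ttr, Kl and Kcnj13 form a positive block (0.72 to 0.94), and Trpv4 and Cox8b correlate negatively with several genes.

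The other choroid plexus genes were set against the mean deviation of the 9. Of the 33, 25 correlated positively, with a median r of 0.30, against 0.02 over all probe sets and 0.14 over those above the median level. An r above 0.5 was found for 11 of the 33 (33.3%) and for 13.0% of all probe sets. Aqp1 had 0.87 and the carbonic anhydrase Car12 0.82, while Kcne2 had -0.32 and Wfikkn2 -0.76. The array mean of the 33 correlated with that of the 9 at 0.73, which was 0.41 without the 2 farthest arrays. The same value was 0.67 for the meningeal list, 0.75 for olfactory mucosa, 0.46 for cerebellar, 0.20 for ependymal and 0.02 for pituitary markers, and -0.77 for the 4 genes of the sex check. Without the 2 farthest arrays it was 0.61 for meningeal, 0.72 for olfactory mucosa, 0.64 for cerebellar, 0.19 for ependymal and 0.34 for pituitary markers, 0.70 for the paralogs and -0.81 for the sex check. The meningeal, olfactory mucosa, cerebellar and paralog lists then stood above the 33 choroid plexus genes. These arrays share their pools across all lists, and the values are descriptions of 10 arrays.

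The 6 genes most like the mean of the 9 in this respect, out of 10888 candidates above the median level, were Thoc7, Cda, Lpin1, Aff4, Rnf122 and Dhdh, with r from 0.95 to 0.97. They were the highest values of a long list and none is on the choroid plexus lists. Their ethanol differences were -0.03, 0.03, 0.02, -0.02, -0.09 and -0.19 (SE 0.04 to 0.05), with no common sign.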

How the data were processed

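Per the labels' protocols, 200 ng of total RNA from pooled whole brains was hybridised to Affymetrix whole-transcript arrays. The deposited values are log2 levels per probe set, and the submitters' processing notes name Partek 6.6 without its role. How background, normalization and experiment were handled is not given in the sources used here, and array data carry no read depth, so the number of arrays limits the precision. The platform annotation listed 23410 probe sets, of which 21789 carried 1 symbol and were tested, 1621 carried several and were not named, and 12146 stayed unlisted. Entrez identifiers changed 0 symbols of the lists.

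Differences were computed with limma 3.58.1 in R 4.3.3 (lmFit, eBayes, Benjamini-Hochberg over all 21789). One fit took experiment and treatment as terms (7 residual degrees of freedom), and a fit of 4 group means gave each experiment and the difference between them (6). All SEs come from these fits, and all p-values are two-sided limma values. Groups came from the array titles. Same-numbered ethanol and control arrays deviated with correlations of -0.15 to 0.23, so replicate numbers were not used as pairs.

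The 9 genes, the gene lists and the naming rule were chosen with earlier results of these data known, the choroid plexus list included, so none is independent evidence. Named genes were all 9 with their paralogs, preset choroid plexus genes and the 8 smallest p, up to 4 per other list, and the 6 most alike. Alternatives were quantile normalization, median centring, level filters, all probe sets, array weights, another prior, a replicate block, each experiment alone and each array left out. Centring each array within the 4 level bins was chosen after seeing the data. Promoters are from RefSeq (GRCm38.p6), and windows of 7 of the 9 genes were used. Procedures were tested on simulated data, and figures were drawn with matplotlib 3.10.9.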

Additional observations from a re-analysis of the deposited data

Results flagged for a closer look

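Of 161 measured genes on the lists, the 9 included, 5 separated the treatments in opposite directions in the 2 experiments. Their ethanol arrays all lay on one side of the control arrays in experiment 1 and on the other side in experiment 2. This held for 1.95% of all probe sets, and the 5 lie outside the 9. A further probe set of the reference gene Ppia met the same rule. Values are experiment 2 minus experiment 1 of the ethanol difference, in log2 units. Rbp4, which encodes the retinol-binding protein carried by transthyretin, had -0.40 (0.19 in experiment 1 and -0.20 in experiment 2, limma unadjusted p = 0.00103). The meningeal markers Slc6a13 and Igf2 had -0.49 and -0.27 (limma unadjusted p = 0.011 and 0.0123). On the ependymal list, the axonemal dynein Dnah11 had 0.23 (-0.10 in experiment 1 and 0.13 in experiment 2, limma unadjusted p = 0.0159) and Fam183b had -0.22 (limma unadjusted p = 0.0302). For Fam183b the nearest arrays of the 2 treatments in experiment 2 lay only 0.00045 log2 units apart. The limma adjusted p-values of the 5 lay between 0.665 and 0.745, so none passed the adjusted threshold. The 5 were picked on this same difference in these same arrays. Their small unadjusted p-values therefore follow from the choice, and nothing is read from them.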

How the results depend on the processing

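The 9 genes had negative differences over both experiments under every alternative run, with a median of -0.25 to -0.19 (-0.17 to -0.12 in experiment 1, -0.30 to -0.21 in experiment 2). In experiment 1, Ttr turned to 0.0124 with centring within level bins and ranged from -0.0763 to 0.00785 with single arrays left out, and Slc4a5 ranged from -0.121 to 0.0254, with 0.0125 without control replicate 1. Calls at adjusted p under 0.05 over both experiments, 0 as reported, were 0 to 1 with single arrays left out. In experiment 1 they were 1 with that experiment fitted alone and 0 to 235 with arrays left out, the 235 without ethanol replicate 1, where the lone ethanol array is assumed to vary as much as other arrays. In experiment 2 they were 2 with array weights, 3 with the trend and robust prior and 0 to 1 with arrays left out, and for the difference between experiments 0 to 94. Of the 33 other choroid plexus genes, 4 were lower at unadjusted p under 0.05 over both experiments (7.68% of all probe sets). The count was 9 with median centring (13.5% of all probe sets), 7 with array weights and 3 to 9 with arrays left out. In experiment 2 the 12 became 3 to 13 with arrays left out. Their median in experiment 1 was -0.0819 to 0.00981 with arrays left out. All ethanol arrays lay below all control arrays in both experiments for 6 of the 9 genes and 2.16% of probe sets after quantile normalization, and for 7 and 5.17% after median centring. With the replicate block the adjusted calls stayed at 0. The counts of the 33 genes lower at unadjusted p under 0.05 were then 5 over both experiments and 9 in experiment 2. No share of all probe sets is given here for the replicate block, array weights or arrays left out. A change in the 33 genes cannot be told from one over all probe sets under those settings. Of all probe sets at unadjusted p under 0.05 over both experiments, 61.9% were lower, 74.0% after quantile normalization, 87.4% after median centring and 55.3% with centring within level bins. The median correlation of each gene with the other 8, 0.18 as reported, ranged from 0.0632 to 0.522 with arrays left out. The causes were not tested. With 2 or 3 pools per treatment and no detection calls, differences of the size of 1 SE (median 0.05 over both experiments) and those of dim probe sets are the least certain.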
